A study of Bos taurus with 6 samples.

Results

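HOX genes encode transcription factors that lie in 4 clusters on separate chromosomes, HOXA, HOXB, HOXC and HOXD, and their messenger RNA was compared between tumor and normal stromal fibroblasts of the bovine ovary. The genes were taken by symbol, HOX followed by a cluster letter and a number, from microarray probe sets that carried 1 gene symbol. This gave 33 of the 39 HOX genes in the RefSeq gene table, among 18010 genes in all, with 9 in HOXA, 9 in HOXB, 7 in HOXC and 8 in HOXD. The remaining 6 had no probe set with 1 symbol entry. A further 2 probe sets carried several HOX symbol entries and were left out by this rule. That of HOXC11 and HOXC10 was called lower in tumor cells (-0.71 ± 0.12, SE, adjusted p = 0.0108 in limma over all probe sets). That of HOXD13, with this symbol repeated, was not called (0.03 ± 0.13). Where a gene has several probe sets, the one with the highest mean over the 6 samples stands for it, but each of the 33 HOX genes had 1 probe set, so none was selected on its own values; the family as a whole was chosen with its tumor and normal levels already known, so its differences are a description and the p-values no independent evidence. The tumor group held 3 samples of stromal cells from ovarian tumor and the normal group 3 samples of stromal cells from normal ovary, all of cattle (Bos taurus), all cultured in DMEM/F12 with serum and without a specific treatment. The labels name neither the tumor type nor the animals' age, nor whether a group's samples are from different animals or different dishes. The p-values below therefore rest on the spread among these 6 samples alone, and that spread may be technical. The samples are called T1 to T3 (tumor) and N1 to N3 (normal), by their replicate numbers.

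In vertebrates the HOX genes of a cluster are numbered by their order along the chromosome, and genes with the same number in different clusters, called paralogs, descend from 1 ancestral gene. Low numbers are used from the hindbrain backwards and high numbers towards the tail, the limbs and the genital tract, and cultured fibroblasts keep a combination of active HOX genes that reflects where in the body they came from. In the mouse, HOXA9, HOXA10, HOXA11 and HOXA13 pattern the oviduct, uterus, cervix and vagina along the duct that lies beside the ovary. HOX proteins bind DNA with partners of the PBX and MEIS families, and the clusters are held silent by Polycomb proteins, kept active by Trithorax proteins and induced in the embryo by retinoic acid and CDX factors.

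The values are log2 expression values, so a difference of 1 is a 2-fold change, and levels of different genes are not set against each other because probes differ in brightness. As a guide to background, 95% of the group means of olfactory receptor genes, whose known use is in the nose, lay under 3.54, and 71.1% of all genes had at least 1 group mean above that guide level. Sample medians ran from 4.45 to 4.55, and samples correlated at 0.988 to 0.991 within the tumor group, 0.983 to 0.991 within the normal group and 0.954 to 0.974 between the groups. The cells carried fibroblast markers, with VIM at 11.66 to 11.86 in tumor and 12.04 to 12.10 in normal samples. COL1A1 stood at 11.89 to 12.00 in tumor and 11.85 to 12.04 in normal samples. Of 10 fibroblast markers, 3 rose (30%, against 8.56% of all genes). These were S100A4 (3.46 ± 0.36), PDGFRA (0.89 ± 0.20) and COL3A1 (0.61 ± 0.14), the last 2 not called without T1 or T2. Not called were THY1 (1.35 ± 0.41), DCN (0.41 ± 0.13), PDGFRB (0.39 ± 0.19) and COL1A2 (0.03 ± 0.10). Nor were COL1A1 (0.01 ± 0.11), LUM (-0.04 ± 0.11) and VIM (-0.29 ± 0.11). The groups of THY1, DCN and VIM did not overlap. THY1 was called higher without T3 (adjusted p = 0.00957 in limma) and DCN without N1 (adjusted p = 0.0472). The leukocyte gene PTPRC (2.20 to 2.44 in tumor and 2.24 to 2.44 in normal samples) and the epithelial gene EPCAM (1.90 to 2.20 in tumor and 1.92 to 2.01 in normal samples) lay under the guide level in every sample. Most genes of their lists did not, since 5 of 6 leukocyte and 5 of 7 epithelial markers had a group mean above it. CD68, of the leukocyte list, had a mean of 6.41 in tumor and 5.26 in normal cells and rose by 1.15 ± 0.17 (adjusted p = 0.00367 in limma). Of 7 epithelial markers, however, 3 keratins were called lower in tumor cells (42.9%, against 9.44% of all genes). KRT18 was lower by 2.78 on the log2 scale, KRT19 by 2.05 and KRT8 by 1.06. The other 4 were not called: EPCAM (0.07 ± 0.12), CDH1 (-0.01 ± 0.12), KRT7 (0.21 ± 0.18) and CLDN4 (-0.13 ± 0.11). The KRT8 call was lost when any sample other than N3 was left out (adjusted p up to 0.135). The mean of the 7 epithelial markers ran from 3.59 to 3.67 in tumor and from 4.12 to 4.66 in normal samples. The leukocyte list (6 genes) averaged 4.23 to 4.32 in tumor and 3.75 to 4.05 in normal samples, the granulosa list (5 genes) 3.07 to 3.20 in tumor and 3.29 to 3.48 in normal samples, and the smooth muscle and pericyte list (6 genes) 6.27 to 7.23 in tumor and 6.26 to 6.42 in normal samples. These means hide larger changes of single genes. FOXL2, of the granulosa list, fell (-1.69 ± 0.15). In the smooth muscle and pericyte list MYH11 (1.92 ± 0.50) and NOTCH3 (1.42 ± 0.31) rose, while DES (-1.10 ± 0.22) and CSPG4 (-0.75 ± 0.14) fell. DES stood at 10.26 to 11.17 in tumor and 11.76 to 11.95 in normal samples. CNN1 stood at 10.14 to 10.48 in tumor and 9.90 to 10.42 in normal samples (0.23 ± 0.17, not called). Both muscle genes thus lay well above the guide level in every sample. The call of MYH11 was lost without T2 or any 1 normal sample, that of NOTCH3 without N2 or T2, and that of DES without N2. In a bulk sample, fewer cells of a type and less RNA per cell cannot be told apart, and the part that the cells marked by these lists may have in the HOX differences was not tested.

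Tumor cells had more mRNA of 5 HOXB genes and less mRNA of 2 HOXC genes than normal cells, while most HOXA and HOXD genes did not pass the test. Of the 33 HOX genes, 7 rose in tumor cells (HOXA4, HOXB3, HOXB4, HOXB6, HOXB8, HOXB9 and HOXD8) and 3 fell (HOXC5, HOXC8 and HOXD11) at an adjusted p of 0.05 in limma over all 18010 genes. These 10 genes are 30.3% of the HOX genes, against 18% of all genes, of which 8.56% rose and 9.44% fell. The median log2 fold change was -0.04 over the HOX genes and 0.02 over all genes, and the median of its absolute size was 0.34 over the HOX genes and 0.20 over all genes. For 17 of the 33 HOX genes the tumor and normal values were fully separate, 10 higher and 7 lower in tumor cells. Over all genes this share was 35.7%, with 17.6% higher and 18.1% lower. Of the 10 called genes, 9 kept their call whichever sample was left out, and the exception was HOXB9.

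**Figure D1:**
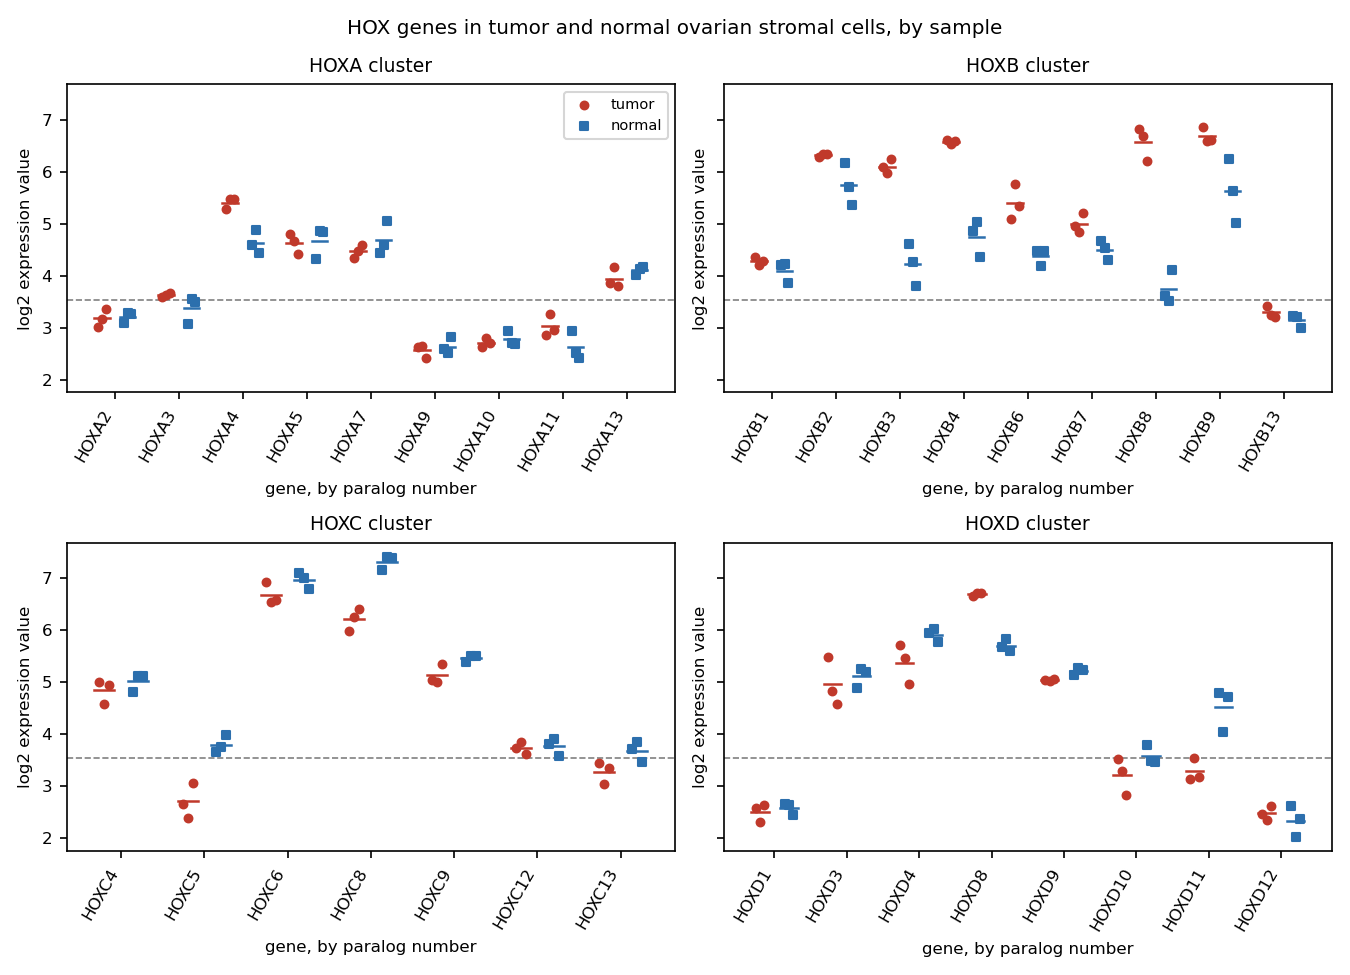
Log2 expression value of each HOX gene (y axis) in the 3 tumor samples (red circles) and the 3 normal samples (blue squares), by cluster and paralog number (x axis), with short lines at the group means and a dashed line at 3.54, the guide to background from olfactory receptor genes. HOXB2 to HOXB9 stand higher in every tumor sample than in any normal sample, and HOXC5, HOXC8 and HOXD11 stand lower.

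The HOXB cluster, on bovine chromosome 19 in the ARS-UCD2.0 assembly, held most of the rises. Of its 9 measured genes, 5 rose (55.6%, against 8.56% of all genes) and all 9 had a positive log2 fold change, with a median of 1.02. That direction held for all 9 in each of the 6 fits without 1 sample and under quantile normalization and median centring. At an unadjusted p of 0.05 in limma, 7 were higher and 0 lower, where 14.9% of all genes were higher and 16.1% lower. The mean over the 9 genes was 5.62, 5.58 and 5.56 in the tumor samples, against 4.68, 4.48 and 4.25 in the normal samples. The tumor samples lay close together and all above the normal samples, which were spread more widely.

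HOXB8, which in the mouse can hold blood progenitors in a growing, immature state, had the largest fold change of the measured HOX genes. Its values were 6.82, 6.69 and 6.20 in tumor cells, against 3.62, 3.52 and 4.11 in normal cells. The lowest tumor sample stood more than 2 log2 units above the highest normal sample, and the normal values lie close to the guide level of 3.54. The log2 fold change was 2.82 ± 0.21 (SE, n = 3 each), a 7.06-fold rise (adjusted p = 0.000247 in limma).

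HOXB3 and HOXB4, neighbours that act in the hindbrain and neck region of the embryo, rose by nearly the same factor. HOXB3 stood at 6.09, 5.97 and 6.24 in tumor samples, against 4.61, 4.27 and 3.81 in normal samples. Its log2 fold change was 1.87 ± 0.20 (SE, n = 3 each, adjusted p = 0.00104). HOXB4, also known for expanding blood stem cells when overexpressed, stood at 6.62, 6.53 and 6.59 in tumor samples, against 4.87, 5.03 and 4.36 in normal samples. Its log2 fold change was 1.83 ± 0.18 (SE, n = 3 each, adjusted p = 0.000671). The tumor samples of both genes were tightly grouped, at an SD of 0.14 for HOXB3 and 0.05 for HOXB4, and the normal samples less so, at 0.40 for HOXB3 and 0.35 for HOXB4.

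HOXB6 and HOXB9, used in the trunk, rose about 2-fold. HOXB6 stood at 5.10, 5.76 and 5.34 in tumor samples, against 4.47, 4.20 and 4.47 in normal samples (log2 fold change 1.02 ± 0.18, SE, n = 3 each, adjusted p = 0.00831). Its symbol rests on the platform annotation alone, since the identifier given there is not in the RefSeq table. HOXB9 stood at 6.86, 6.59 and 6.61 in tumor samples, against 6.25, 5.63 and 5.02 in normal samples. The groups of HOXB9 did not overlap, but the normal samples spanned more than the difference between the group means, which was 1.05 ± 0.28 (SE, n = 3 each, adjusted p = 0.0364). The call of HOXB9 was lost without N2, N3 or any 1 tumor sample (adjusted p = 0.0549 to 0.112).

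The remaining HOXB genes differed less. HOXB2, a hindbrain regulator, stood at 6.29, 6.35 and 6.35 in tumor samples, against 6.17, 5.71 and 5.36 in normal samples. HOXB7, a trunk gene, stood at 4.96, 4.84 and 5.20 in tumor samples, against 4.68, 4.53 and 4.30 in normal samples. Every tumor sample lay above every normal sample in both genes. The difference was 0.58 ± 0.20 (SE, n = 3 each) for HOXB2 (adjusted p = 0.0796; 0.0126 without N1) and 0.50 ± 0.15 for HOXB7 (adjusted p = 0.0548; 0.0447 without N1). At the ends of the cluster, HOXB1 differed by 0.19 ± 0.14 (95% interval -0.12 to 0.51), and HOXB13, which marks the tail end and the prostate, by 0.15 ± 0.12 (-0.13 to 0.44) and lay under the guide level in both groups.

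In the HOXC cluster, on chromosome 5, the direction was the opposite. All 7 measured genes had a negative log2 fold change, from -0.04 to -1.10 with a median of -0.34, and 2 fell (28.6%, against 9.44% of all genes). The sign held for all 7 in 4 of the 6 fits without 1 sample, and HOXC12, the gene nearest to 0, turned positive without N2 (0.03) or T3 (0.02). At an unadjusted p of 0.05 in limma, 4 were lower and 0 higher, against 16.1% and 14.9% of all genes. The mean over the 7 genes was 4.69, 4.53 and 4.76 in the tumor samples, against 5.10, 5.22 and 5.12 in the normal samples, so the groups did not overlap. The probe set shared by HOXC11 and HOXC10, not counted among the 7, was also called lower (-0.71 ± 0.12).

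HOXC8, which shapes the thoracic skeleton in the mouse, stood at 5.99, 6.26 and 6.40 in tumor samples, against 7.16, 7.41 and 7.38 in normal samples. Both groups lay well above the guide level, and the difference was -1.10 ± 0.14 (SE, n = 3 each, adjusted p = 0.00236), a 2.14-fold fall. HOXC5 stood at 2.67, 2.40 and 3.06 in tumor samples, against 3.66, 3.75 and 3.98 in normal samples, so only the normal samples lay above the guide level. Its difference was -1.09 ± 0.18 (SE, n = 3 each, adjusted p = 0.00667). HOXC9, which specifies thoracic motor neurons, differed by -0.34 ± 0.13 (adjusted p = 0.118) and HOXC13, known for its part in hair and nails, by -0.40 ± 0.16 (adjusted p = 0.126), each without overlap between the groups. HOXC6 stood at 6.93, 6.55 and 6.58 in tumor samples, against 7.11, 7.01 and 6.79 in normal samples, with a difference of -0.28 ± 0.15 (95% interval -0.63 to 0.06). HOXC4 differed by -0.18 ± 0.16 and HOXC12 by -0.04 ± 0.13, with overlapping groups in both.

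The HOXD cluster, on chromosome 2, held a rise and a fall a few genes apart (2 of 8 called, 25%, against 18% of all genes). HOXD8 stood at 6.65, 6.72 and 6.71 in tumor samples, against 5.68, 5.83 and 5.61 in normal samples. It varied little within either group, and the difference was 0.99 ± 0.11 (SE, n = 3 each, adjusted p = 0.00122), a 1.98-fold rise. HOXD11, which builds the forearm and, with HOXA11, the kidney of the mouse, stood at 3.15, 3.54 and 3.18 in tumor samples, against 4.80, 4.05 and 4.71 in normal samples. The mean of the tumor samples was under the guide level and that of the normal samples above it, and the difference was -1.23 ± 0.22 (SE, n = 3 each, adjusted p = 0.00778), a 2.35-fold fall. HOXD9, next to HOXD8, stood at 5.05, 5.03 and 5.07 in tumor samples, against 5.14, 5.28 and 5.23 in normal samples. The groups of HOXD9 did not overlap, but the difference was small, at -0.17 ± 0.10 (adjusted p = 0.339). HOXD4 stood at 5.72, 5.46 and 4.96 in tumor samples, against 5.94, 6.02 and 5.77 in normal samples, without overlap and with a difference of -0.53 ± 0.20 (adjusted p = 0.105). The other HOXD genes differed by -0.14 ± 0.23 for HOXD3, -0.36 ± 0.19 for HOXD10, -0.07 ± 0.13 for HOXD1 and 0.14 ± 0.17 for HOXD12, with overlapping groups, and HOXD1 and HOXD12 lay under the guide level in both groups.

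In the HOXA cluster, on chromosome 4, 1 of 9 measured genes rose (11.1%), a share near the 8.56% of all genes. At an unadjusted p of 0.05 in limma 2 were higher and 0 lower, where 14.9% of all genes were higher and 16.1% lower. HOXA4 stood at 5.29, 5.47 and 5.47 in tumor samples, against 4.59, 4.89 and 4.44 in normal samples. The groups did not overlap, and the difference was 0.77 ± 0.14 (SE, n = 3 each, adjusted p = 0.0101). HOXA5, a regulator of lung development in the mouse, stood at 4.80, 4.68 and 4.43 in tumor samples, against 4.32, 4.86 and 4.84 in normal samples. HOXA7, a trunk gene, stood at 4.35, 4.47 and 4.59 in tumor samples, against 4.45, 4.60 and 5.05 in normal samples. The groups of both genes overlapped, with differences of -0.04 ± 0.18 for HOXA5 and -0.23 ± 0.17 for HOXA7. HOXA3, needed for the thymus and parathyroid in the mouse, differed by 0.25 ± 0.15 (adjusted p = 0.302) without overlap, and HOXA2, a hindbrain and pharyngeal arch gene, by -0.03 ± 0.13.

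Most of the HOXA genes of the genital tract lay near background in both groups. HOXA9 had values of 2.64, 2.66 and 2.43 in tumor samples, against 2.59, 2.51 and 2.83 in normal samples. HOXA10 had values of 2.64, 2.81 and 2.71 in tumor samples, against 2.95, 2.71 and 2.69 in normal samples. HOXA11 had values of 2.87, 3.26 and 2.96 in tumor samples, against 2.94, 2.52 and 2.43 in normal samples. All of these values lay under the guide level of 3.54. The differences were -0.07 ± 0.13 for HOXA9 (95% interval -0.37 to 0.24), -0.06 ± 0.12 for HOXA10 (-0.34 to 0.22) and 0.40 ± 0.17 for HOXA11 (adjusted p = 0.16, 0.0264 with array weights). HOXA13 lay above the guide level in both groups and differed by -0.16 ± 0.13 (adjusted p = 0.504).

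**Figure D2:**
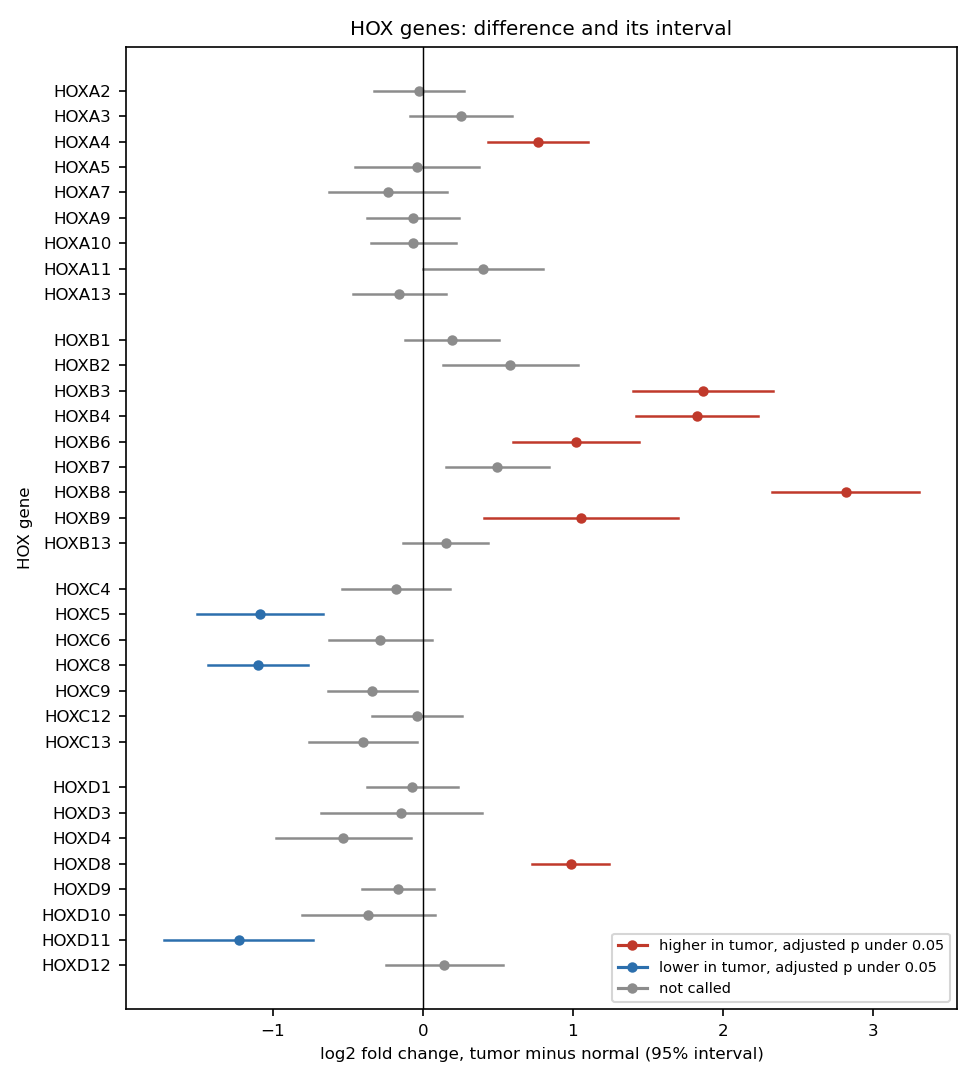
Log2 fold change of each HOX gene (x axis, tumor minus normal) with its 95% interval, by cluster and paralog number (y axis), with genes called higher in tumor cells in red, called lower in blue and not called in grey. The points of all 9 HOXB genes lie right of 0 and those of all 7 HOXC genes left of it, with HOXB8 farthest to the right at 2.82.

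Among the measured genes, paralogs were called in opposite directions in group 8 only. In paralog group 8 all 3 measured genes were called, HOXB8 at 2.82 and HOXD8 at 0.99 higher and HOXC8 at -1.10 lower in tumor cells, and the 95% intervals of HOXB8 (2.33 to 3.31), HOXD8 (0.73 to 1.24) and HOXC8 (-1.43 to -0.77) did not overlap. In paralog group 4, HOXB4 (1.83) and HOXA4 (0.77) rose, with intervals of 1.42 to 2.23 and 0.44 to 1.10. There HOXC4 differed by -0.18 and HOXD4 by -0.53, neither called. In group 3 HOXB3 rose, while HOXA3 differed by 0.25 and HOXD3 by -0.14, neither called. In group 9 HOXB9 rose, and HOXA9, HOXC9 and HOXD9 had differences from -0.34 to -0.07, none called.

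Called genes lay mostly in the middle of the numbering. Among paralogs 4 to 8, 7 of 13 genes were called (5 higher, 2 lower), or 53.8%, against 18% of all genes. In the wider band of paralogs 4 to 10, 8 of 19 were called (42.1%). Of the 26 HOX genes above the guide level in at least 1 group, 10 were called (38.5%). Among paralogs 1 to 3, 1 of 7 was called (14.3%), and among paralogs 9 to 13, 2 of 13 (15.4%), both near the share of all genes. All 13 genes of paralogs 4 to 8 were above the guide level in at least 1 group, against 71.1% of all genes. So were 5 of 7 of paralogs 1 to 3 and 8 of 13 of paralogs 9 to 13. Over all positions, 22 HOX genes were above the guide level in tumor cells and 25 in normal cells. HOXA3 was above it only in tumor cells, and HOXC5, HOXC13, HOXD10 and HOXD11 only in normal cells, of which HOXC5 and HOXD11 were called.

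**Figure D3:**
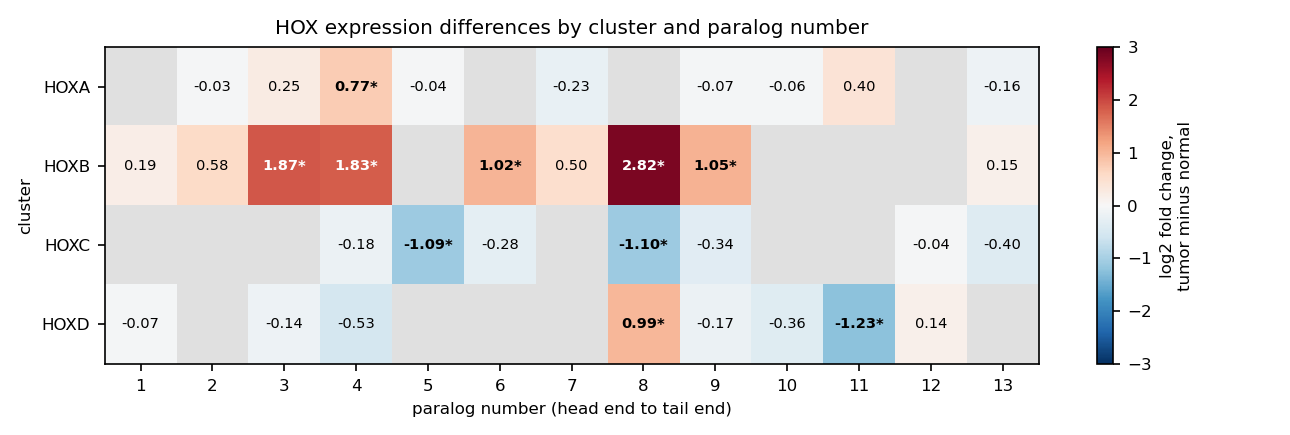
Log2 fold change, tumor minus normal, in colour and as a printed value for each measured HOX gene, with the 4 clusters as rows and paralog numbers 1 to 13 as columns. An asterisk and bold type mark an adjusted p under 0.05 and grey squares are positions with no gene among the 33 described. The HOXB row is positive throughout and the HOXC row negative throughout, and column 8 holds values of both signs.

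The spread between samples was as follows in each cluster, with no test of the differences. For HOXB genes the median SD was 0.14 in tumor cells and 0.32 in normal cells, and for HOXA genes 0.13 in tumor cells and 0.23 in normal cells, with a larger SD in normal cells for 7 of 9 genes in each. For HOXC genes the order was turned, with a median SD of 0.21 in tumor cells and 0.17 in normal cells, as it was for HOXD genes, at 0.19 in tumor cells and 0.15 in normal cells. Over all genes the median SD was 0.15 in tumor cells and 0.16 in normal cells. N1 had the highest value of its group in 6 of 9 HOXB genes, which places it nearest to the tumor samples in this cluster. Without N1, 7 HOXB genes were called, and without any 1 of the other samples 4 were.

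Some annotated HOX genes overlap on the chromosome. In RefSeq, 7 pairs of measured HOX genes have overlapping spans, among them HOXB3 with HOXB4 and with HOXB6, HOXB8 with HOXB9, HOXA3 with HOXA4, and HOXD10 with HOXD11. Probe positions were not used here, so whether the probes of such a pair read a shared transcript was not tested, and the values of these genes are uncertain to that extent. Of the pairs named, HOXB3, HOXB4, HOXB6, HOXB8 and HOXB9 were all called higher, while HOXA4 and HOXD11 were called and HOXA3 and HOXD10 were not; the difference within a pair was not tested.

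Genes beside the clusters changed in both directions. Of the 5 nearest measured genes on each side of each cluster, 40 in all, 7 rose and 6 fell (32.5% called, against 18% of all genes), with a median log2 fold change of 0.003. The number that fell was 2 without N2, T1 or T2, and 3 without N3. Around HOXB, 2 of 10 rose (CALCOCO2 and NFE2L1) and 1 fell (ATP5MC1), named after their values were seen. The median of these neighbours was 0.12, against 1.02 for the HOXB genes. However, 5 of the 10 neighbours lay under the guide level in both groups, against 1 of the 9 HOXB genes, so these medians are not fully comparable. The call of CALCOCO2 was lost when any sample other than N1 was left out (adjusted p up to 0.164). Around HOXC, 2 of 10 rose and 2 fell, and CALCOCO1, an autophagy receptor beyond HOXC13, rose by 1.06 ± 0.19, opposite in sign to the HOXC genes.

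Beside HOXA, the homeobox gene EVX1 at the HOXA13 end differed by -0.003 ± 0.10 (adjusted p = 0.989). At the other end of HOXA, SKAP2, an adaptor protein, rose by 0.83 ± 0.13 and SNX10, a sorting nexin, by 1.05 ± 0.20. Next to them, CBX3, a heterochromatin protein, fell (-1.27 ± 0.27), a call lost without N2, T1 or T2, and so did HNRNPA2B1, an RNA-binding protein (-0.74 ± 0.13), both named after their values were seen. That end thus held 2 rises and 2 falls among its 5 nearest genes. A list of 24 genes in and near the clusters had 21 that were measured. Of these, 5 rose, JAZF1 (1.58 ± 0.30) with the largest change, and 3 fell (38.1% called, against 18% of all genes). The number in that list that fell was 0 in limma when any sample other than N1 was left out.

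Partners of HOX proteins and genes related to them were called in both directions. The list held 11 measured genes, PBXIP1 (0.62 ± 0.21, not called) and genes of the PBX, MEIS, PKNOX and TGIF families. Of the 11, 2 rose and 1 fell (27.3% called, against 18% of all genes), with a median of 0.03. Whichever sample was left out, 1 rose. PBX2 had values of 8.66, 8.53 and 8.38 in tumor samples, against 7.92, 7.73 and 7.75 in normal samples, and rose by 0.72 ± 0.12 (SE, n = 3 each, adjusted p = 0.00706). PKNOX2 rose by 0.40 ± 0.11 (adjusted p = 0.0371), a call lost whichever sample was left out (adjusted p = 0.0632 to 0.12). TGIF1, a related repressor, fell (-0.66 ± 0.14, adjusted p = 0.017), a call lost without N2 or T1, and 2 genes of the list fell without N3. MEIS1 (-0.24 ± 0.13, adjusted p = 0.28) and MEIS2 (-0.31 ± 0.16, adjusted p = 0.238) did not pass.

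Chromatin regulators of the HOX clusters were called in both directions. Of 29 measured Polycomb subunits, which repress HOX genes, 3 rose and 4 fell, with a median of -0.10. That is 24.1% called, against 18% of all genes, of which 8.56% rose and 9.44% fell. EZH2, a catalytic subunit that is high in dividing cells, had values of 5.62, 6.01 and 6.03 in tumor samples, against 6.52, 6.60 and 7.61 in normal samples. It fell by 1.02 on the log2 scale (SE 0.29, adjusted p = 0.0437), a call lost without N2 or any 1 tumor sample (adjusted p up to 0.135). EZH1, the alternative catalytic subunit, had values of 7.88, 7.56 and 7.10 in tumor samples, against 6.63, 6.87 and 6.21 in normal samples. It rose (0.94 ± 0.23, adjusted p = 0.0291), a call lost without N1, N3, T1 or T2. The groups of EZH2 and EZH1 did not overlap. CBX2 (-0.65 ± 0.15) and PCGF5 (-0.63 ± 0.17) fell, the first lost without T1 or T2 and the second whichever sample was left out. In the 6 fits without 1 sample, 0 to 2 Polycomb genes rose and 0 to 4 fell. Counted by sample, 0 rose without N3 or T1 and 1 without N1, N2 or T2. The number that fell was 0 without T1 or T2, 1 without N2 or T3, and 2 without N3.

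Of 15 measured Trithorax group genes and H3K27 demethylases, which keep HOX genes active, 3 rose and 2 fell, with a median of 0.06. The share called was 33.3%, against 18% of all genes. KMT2A, the methyltransferase that maintains HOX expression and is rearranged in leukemia, had values of 7.94, 7.81 and 7.94 in tumor samples, against 7.36, 7.33 and 7.41 in normal samples. It rose by 0.53 ± 0.11 (SE, n = 3 each, adjusted p = 0.0129), a call lost without N2 (adjusted p = 0.0577). ASH1L rose by 0.54 ± 0.11, a call lost without T2 (adjusted p = 0.0561), and PSIP1, named after its values were seen, by 0.49 ± 0.12, a call lost without N1, N2, T1 or T2. DOT1L, a methyltransferase recruited by KMT2A fusion proteins, fell (-0.93 ± 0.15, adjusted p = 0.00628). WDR5, a shared subunit of these complexes, also fell (-0.64 ± 0.15), a call lost without N2 or any 1 tumor sample. Of the list, 1 rose without N2 or T2, and 1 fell without N2 or any 1 tumor sample.

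Retinoic acid, which induces HOX genes from the low-numbered end, is made by the ALDH1A enzymes and broken down by the CYP26 enzymes. Of 18 measured CDX, retinoid and other upstream genes, 4 rose and 1 fell, with a median of 0.07. That is 27.8% called, against 18% of all genes. ALDH1A3 had values of 9.32, 9.26 and 9.25 in tumor samples, against 7.12, 7.17 and 7.97 in normal samples, and rose by 1.86 ± 0.22 (SE, n = 3 each, adjusted p = 0.00157). ALDH1A1 had values of 11.35, 10.71 and 11.46 in tumor samples, against 8.32, 9.73 and 10.08 in normal samples, and rose by 1.80 ± 0.43 (adjusted p = 0.0254). ALDH1A2 had values of 2.06, 2.13 and 2.39 in tumor samples, against 2.93, 3.46 and 4.19 in normal samples. So the 3 synthesis enzymes did not move in 1 direction: ALDH1A2 fell (-1.33 ± 0.29, adjusted p = 0.0174) and both its group means lay under the guide level. The breakdown enzyme CYP26B1, named after its values were seen, rose by 1.14 ± 0.17 (adjusted p = 0.00407), and MLLT3, a partner of KMT2A fusions, by 1.17 ± 0.25 (adjusted p = 0.0165). The calls of ALDH1A1 (without N2, T1 or T3), ALDH1A2 and MLLT3 (both without N2, T1 or T2) were lost with 1 sample left out. In the list, 2 rose without N2 or T1, and 0 fell in limma without N2, T1 or T2.

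**Figure D4:**
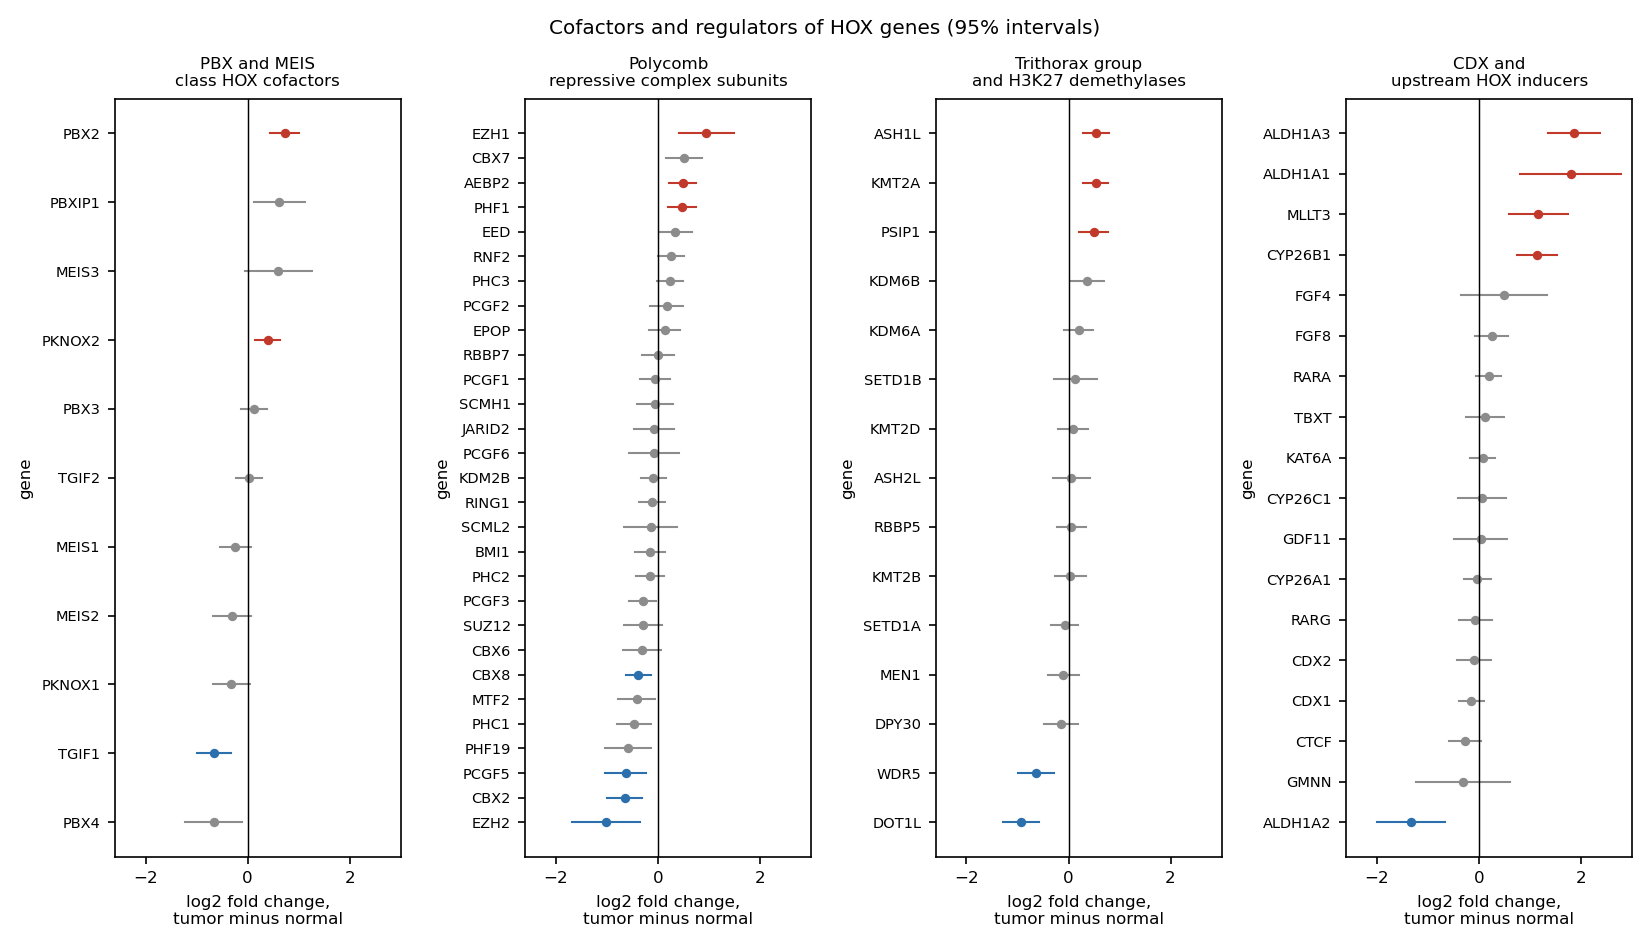
Log2 fold change (x axis, tumor minus normal) with its 95% interval for every measured gene (y axis) of 4 lists of HOX partners and regulators, with genes called higher in tumor cells in red, called lower in blue and not called in grey. Each list holds calls in both directions, and the largest differences are those of ALDH1A3 (1.86) and ALDH1A1 (1.80).

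Other transcription factors that mark body position also changed in both directions, some by more than any HOX gene. Of 12 ParaHox and related Antennapedia-class genes, 1 rose and 1 fell (16.7% called, near the 18% of all genes). MEOX2, a mesodermal homeobox gene, had values of 7.62, 8.05 and 7.23 in tumor samples, against 3.30, 2.91 and 3.39 in normal samples, and rose by 4.43 ± 0.22 (SE, n = 3 each, adjusted p = 4.3e-05). All normal samples of MEOX2 lay under the guide level. EN1 fell (-0.66 ± 0.15), a call lost without N1, N2, T1 or T2.

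Of 34 other positional factors, most of them homeobox genes, 6 rose and 9 fell, with a median of -0.03. That is 44.1% called, against 18% of all genes. The number that rose was 2 without N2, N3 or T2, and 3 without T1. SATB1, a chromatin organiser, rose by 1.69 ± 0.30. IRX5 (-1.73 ± 0.26), ISL1 (-1.57 ± 0.31) and EMX2, needed for the gonad and genital tract in the mouse, fell, EMX2 with values of 4.02, 4.30 and 4.64 in tumor samples, against 7.14, 7.39 and 7.57 in normal samples (-3.05 ± 0.19, adjusted p = 9.5e-05). Of 8 genes of the Mullerian duct and uterine tract, 0 rose and 1 fell in limma (12.5% called, against 18% of all genes), and 0 were higher at an unadjusted p of 0.05, against 14.9% of all genes. The gene that fell was PAX8, a factor of the kidney, thyroid and Mullerian duct, with values of 4.0, 3.89 and 3.32 in tumor samples, against 5.31, 5.04 and 4.73 in normal samples (-1.29 ± 0.22, adjusted p = 0.00667). PAX8, EMX2 and the keratins KRT18 and KRT19 were thus lower in the same samples, and whether they share a cell population was not tested.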

How the data were processed

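The authors deposited log2 expression values made with RMA, a method of background correction, quantile normalization and probe summary, per the submitters' processing notes, which give no version. Each array read 1 biotin-labelled RNA sample, per the labels. The table held 24415 probe sets. Of these, 18457 had 1 gene symbol in the platform annotation, which can be old, 688 had several symbol entries and 5270 none. Probe sets with several entries, also where a symbol was repeated, stood for no gene. Scan batches were not analysed here.

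Groups and replicate numbers came from sample titles. All 18010 genes were fitted with limma 3.58.1 in R 4.3.3 (lmFit, eBayes, two-sided, no covariates) on the deposited log2 values, with Benjamini-Hochberg adjustment over all genes and a threshold of 0.05. Errors of differences are standard errors, others standard deviations. The HOX genes, tests and gene lists were chosen with earlier results of these data known. The lists cover HOX partners, Polycomb, Trithorax, upstream inducers, cluster neighbours, positional factors, ParaHox genes, Mullerian genes, and markers of fibroblasts, epithelium, endothelium, leukocytes, granulosa, and smooth muscle and pericytes. Named were all HOX genes, the 4 largest called changes per list, MEIS1, MEIS2, EZH2, EVX1 and fibroblast markers; the neighbours by chromosome order were added after seeing the data. Of the other marker lists, the fit called 3 of 10 fibroblast genes higher (1 without T1 or T2), 1 of 6 leukocyte genes higher (CD68), 1 of 5 granulosa genes lower (FOXL2), and 2 higher and 2 lower of 6 smooth muscle and pericyte genes (0 or 1 higher without T2 or any 1 normal sample). Of 5 endothelial genes it called 0 in either direction, and 0 at an unadjusted p under 0.05. Of all genes it called 8.56% higher and 9.44% lower, and 14.9% and 16.1% at the unadjusted threshold.

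Tested on simulated log2 values of all 18010 genes in this design, the fit recovered 10% of 50 genes changed by 0.5, 76% of those changed by 1 and 94% of those changed by 2 on the log2 scale, with 7 false calls. The replicate numbers did not pair the samples. RefSeq's ARS-UCD2.0 gene table served for names, chromosomes and gene order; sequences and probe positions were not used here. The number of arrays limits the precision.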

Additional observations from a re-analysis of the deposited data

How the results depend on the processing

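The HOX calls were recomputed under 18 alternatives, chosen from the normalization (quantile, median centring), the filter (dim probe sets or the olfactory receptor level), the variance model (trended or robust prior), array weights, the replicate block, the probe sets (all adjusted together, or averaged per gene), the threshold (0.01, 0.1) and each of the 6 samples left out. The number of HOX genes that rose was 6 to 9 with 1 sample left out and 5 to 10 under the other settings, against 7. The number that fell was 3 in every setting except array weights, which gave 6. The replicate numbers did not pair the samples (correlations of -0.08 to 0.07 between deviations of same-numbered samples), and with the replicate block 7 HOX genes rose and 3 fell, as without it, while the adjusted p was above 0.05 for EN1 (0.0506), KRT8 (0.061), PSIP1 (0.0668), MYH11 (0.0679), PKNOX2 (0.0712) and CALCOCO2 (0.0874). Over 584 gene and setting combinations of HOX genes, 549 kept sign and call, 7 lost a call, 13 gained one and 15 changed sign, the last in 8 genes and 0 times with a call in limma. Where a sign turned, the lowest and highest log2 fold changes with 1 sample left out were -0.11 and 0.057 for HOXA2, -0.21 and 0.067 for HOXA5, -0.13 and 0.027 for HOXA9, -0.11 and 0.02 for HOXA10, -0.13 and 0.033 for HOXC12, -0.14 and 0.028 for HOXD1, -0.40 and 0.052 for HOXD3, -0.012 and 0.28 for HOXD12, -0.032 and 0.028 for EVX1, -0.04 and 0.055 for COL1A1 and -0.078 and 0.037 for LUM. With array weights the turned values were 0.041 for HOXA9, 0.0047 for HOXA10, 0.011 for EVX1, -0.055 for COL1A1, -0.0093 for COL1A2 and 0.0025 for LUM, and COL1A1 was -0.037 under quantile normalization and -0.013 under median centring. The cause was not tested. Over all genes, 876 rose and 889 fell without normal replicate 2, and 2362 rose and 2692 fell with array weights, against 1542 and 1700. A threshold of 0.01 left 661 and 636.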
